A study of Mus musculus with 13 samples.

Results

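The 10 genes described here are Lrmda, Nipsnap2, Entpd4, Mid1, A430033K04Rik, Nxpe5, Mblac1, Cnpy4, Fis1 and Stbd1, out of 18820 genes measured in mouse epididymal white adipose tissue, which is visceral fat. They were chosen by the measured RNA difference between P2X7 knockout and wild-type mice on these arrays, and 7 of them lie on chromosome 5, the chromosome of P2rx7 itself. The genotype differences are therefore given as a description with no test. The effect of diet, averaged over the genotypes, played no part in the choice and was tested.

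P2X7 knockout mice (B6.129P2-P2rx7tm1Gab/J, crossed back to the B6 background for 7 generations) were set against wild-type C57BL/6 mice. Males of both genotypes were fed for 12 weeks with a high-fat diet, 60% of its energy being fat, or with low-fat chow, where fat gave 13%, and their fat was taken at 18 weeks of age. There were 4 Affymetrix arrays of knockout mice on high-fat diet and 3 of each other group. The labels do not say that each array held 1 animal, so the spread between arrays may be partly technical, and the number of arrays limits the precision.

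P2X7 is an ion channel of immune cells that extracellular ATP opens. A line made in stem cells of another mouse strain and crossed to C57BL/6 keeps donor DNA around the altered gene, and the genes lying there are inherited with it. The knockout and wild-type mice of such a comparison can thus differ at the targeted gene and at its neighbours on the same chromosome.

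The single P2rx7 probe set cannot check the genotype labels, since no source used here says whether it lies in the altered stretch. On chow its log2 values were 8.23, 7.90 and 8.04 in knockout mice and 8.32, 7.91 and 8.41 in wild-type mice, and the genotypes overlapped. With high-fat feeding the P2rx7 values were 8.90, 9.14, 9.14 and 9.07 in knockout mice and 9.54, 9.36 and 9.69 in wild-type mice, with every knockout value the lower. Averaged over the diets the genotype difference of P2rx7 was -0.31 ± 0.09 (SE) and did not pass (limma adjusted p 0.385).

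The values are log2 expression values, so a difference of 1 is a doubling. The array medians over the genes ran from 6.56 to 6.69, arrays of the same group correlated at 0.993 to 0.997 across genes, and 0 pairs were identical. All 10 adipocyte markers, among them Adipoq, Fabp4 and Plin1, read above the median of the array medians on every array. Of 65 measured markers of 11 cell types, 0 passed for genotype. The adipocyte mean lay between 12.25 and 12.32 in knockout mice and between 12.18 and 12.32 in wild-type mice on chow. The mean of 10 macrophage markers overlapped too, from 9.66 to 9.91 in knockout and from 9.43 to 9.82 in wild-type mice on chow, and from 10.73 to 10.94 in knockout and from 10.73 to 11.08 in wild-type mice on high-fat diet.

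On chow the genotypes did not overlap in 2 marker lists. The mean of 6 liver transcripts was 6.16 to 6.34 in knockout mice and 7.62 to 8.66 in wild-type mice on chow (exact two-sided permutation p 0.1, the smallest that 3 against 3 allows, and 0.958 adjusted over 22 tests). On high-fat diet the liver mean overlapped, at 5.39 to 6.68 in knockout and 5.69 to 7.69 in wild-type mice. The mean of 4 T cell markers on chow was 5.84 to 6.18 in knockout and 5.67 to 5.73 in wild-type mice, with the same p-values. The part of these lists in the differences given below was not tested. In whole tissue, fewer cells of a type and less RNA per cell cannot be told apart.

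The direction of the genotype difference was the same on the 2 diets for each of the 10 genes: 8 were lower and 2, Cnpy4 and Stbd1, higher in knockout mice on each. The arrays of the genotypes did not overlap on chow for 10 of the 10 genes, against 14.9% of all genes, and on high-fat diet for 9 of the 10, against 6.68% of all genes. On both diets, in the same direction, this held for 9 of them, against 0.478% of all genes. Averaged over the diets, 20 genes passed the threshold of an adjusted p under 0.05 (0.106% of those tested, 0.0584% lower and 0.0478% higher), and the 10 genes are among them. An unadjusted p under 0.05 was reached by 7.23% of all genes. On chow alone 25 genes passed (0.133%, with 0.0478% higher and 0.085% lower), 6 of the 10 among them. On high-fat diet alone 8 passed (0.0425%, with 0.0106% higher and 0.0319% lower), 5 of the 10 among them. These shares follow from the choice of the genes and nothing is read from them. Chromosome 5, with 5.73% of the genes, held 7 of the 20 (0.649% of its genes, against 0.106% of all). The 7 are the chromosome 5 genes described here, chosen on these same arrays, and nothing is read from this count either. Over 20 alternative fits, between 2 (with the replicate block) and 11 (without the high-fat wild-type replicate 2) chromosome 5 genes passed, and others than the 7 were among them in 6 fits. Just outside the threshold lay Mospd3, a chromosome 5 gene taken up below, with -0.26 ± 0.05, while Fis1, among the 20, had -0.31 ± 0.05.

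**Figure D1:**
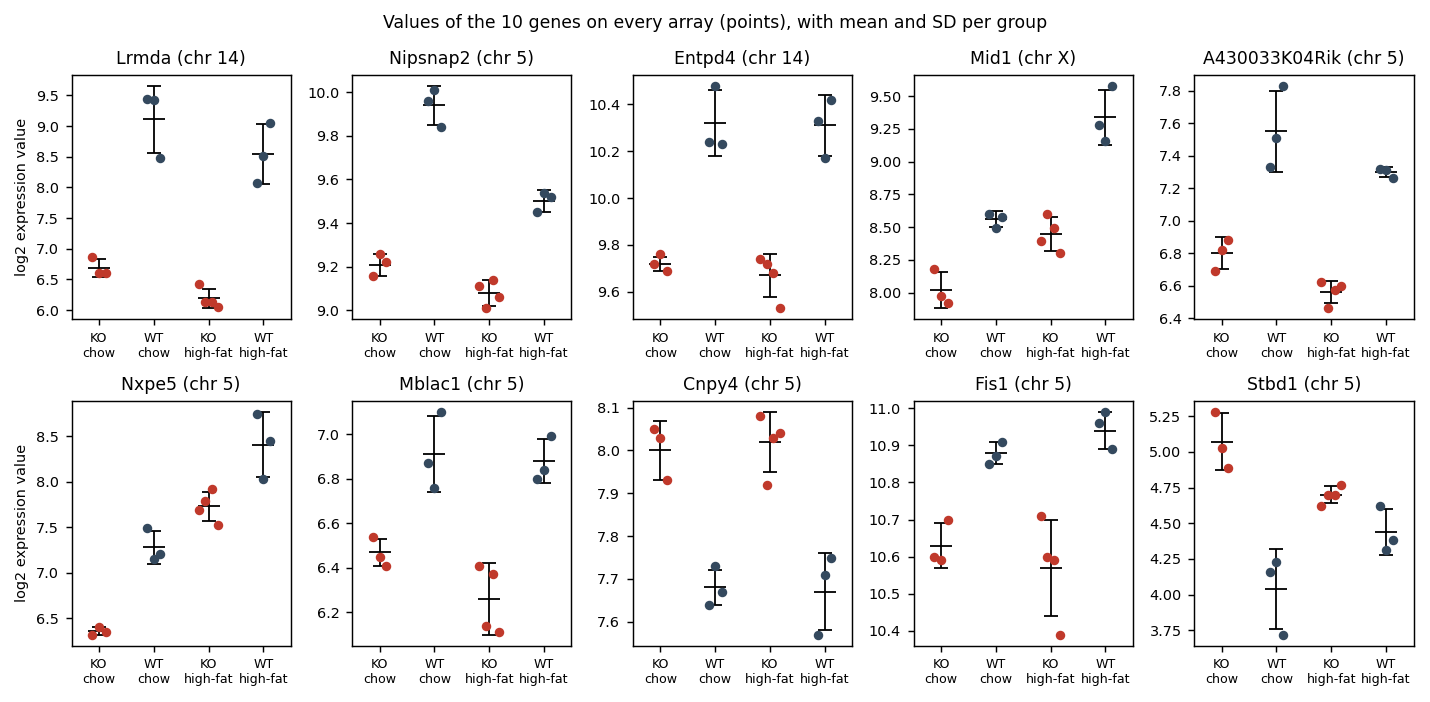
Each panel plots the log2 expression value of 1 gene (vertical axis, own scale, not starting at 0) in the 4 groups, with a point per array and the mean ± SD of the group as a bar. Knockout arrays are red and wild-type arrays dark blue. For 9 of the 10 genes the genotypes are apart on both diets, and Stbd1 overlaps on high-fat diet, where wild-type mice reach 4.62 and knockout mice start at 4.62.

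Cnpy4, Mblac1 and Nxpe5 follow each other directly among the measured genes of chromosome 5, at 191, 192 and 193 places beyond P2rx7, and A430033K04Rik lies 201 places beyond it. Neighbours in this run moved in opposite directions. Cnpy4, a canopy protein of the endoplasmic reticulum that takes part in the surface display of Toll-like receptors, was higher in knockout mice. Mblac1, whose human counterpart is a nuclease that processes histone precursor RNA, was lower, and so was Nxpe5, a member of the neurexophilin and PC-esterase domain family. Their start regions are shown because the genes are neighbours with different genotype differences, and that of Lrmda because its difference was the largest of all genes. They are reference sequence of the GRCm38.p6 assembly (C57BL/6J) from RefSeq, 250 bases before to 50 after the annotated start, and do not show the sequence that the knockout mice carry. The Cnpy4 window is chr5:138187285-138187584, that of Mblac1 chr5:138194064-138194363, that of Nxpe5 chr5:138225654-138225953 and that of Lrmda chr14:22019462-22019761, all on the plus strand. Capitals mark 4 motifs searched on both strands, the TATA box TATAAA, the CCAAT box CCAAT, the GC box GGGCGG and the E-box CACGTG.
Cnpy4: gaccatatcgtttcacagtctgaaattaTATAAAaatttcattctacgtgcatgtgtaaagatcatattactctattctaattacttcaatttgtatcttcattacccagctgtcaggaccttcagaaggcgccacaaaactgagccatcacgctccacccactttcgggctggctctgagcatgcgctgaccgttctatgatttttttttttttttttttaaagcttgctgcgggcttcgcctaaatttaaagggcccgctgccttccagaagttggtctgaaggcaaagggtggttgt
Mblac1: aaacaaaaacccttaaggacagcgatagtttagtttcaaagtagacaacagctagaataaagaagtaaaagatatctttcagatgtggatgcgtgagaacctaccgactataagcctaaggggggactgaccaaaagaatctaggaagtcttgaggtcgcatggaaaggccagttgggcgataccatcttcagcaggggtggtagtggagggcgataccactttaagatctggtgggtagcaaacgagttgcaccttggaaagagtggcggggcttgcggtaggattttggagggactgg
Nxpe5: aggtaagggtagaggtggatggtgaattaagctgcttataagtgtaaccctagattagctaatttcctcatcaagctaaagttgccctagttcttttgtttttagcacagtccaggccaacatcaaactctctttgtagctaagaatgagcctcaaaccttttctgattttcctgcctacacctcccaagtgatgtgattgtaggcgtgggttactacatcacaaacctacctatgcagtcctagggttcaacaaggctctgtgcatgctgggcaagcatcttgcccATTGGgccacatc
Lrmda: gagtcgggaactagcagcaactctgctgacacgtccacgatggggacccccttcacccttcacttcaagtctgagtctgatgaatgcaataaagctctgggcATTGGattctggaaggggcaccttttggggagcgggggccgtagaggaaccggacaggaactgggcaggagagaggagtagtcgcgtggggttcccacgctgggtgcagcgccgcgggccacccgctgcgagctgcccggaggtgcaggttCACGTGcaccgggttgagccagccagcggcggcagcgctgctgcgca

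The start regions of these 4 genes differ in letters, and a link to the genotype differences was not tested. Cnpy4 holds 1 TATA box, a motif found in 13.6% of all 32851 start windows, and Mblac1 holds 0 of the 4 motifs. Nxpe5 holds 1 CCAAT box on the minus strand (37.4% of windows), and Lrmda holds 1 CCAAT box on the minus strand and 1 E-box (7.15% of windows). GC boxes, present in 35.7% of windows, are absent from these 4. In CpG pairs the windows had 10 in Cnpy4, 9 in Mblac1, 1 in Nxpe5 and 21 in Lrmda, against a median of 7. A match is a run of letters and not a shown binding site. Of the 10 genes, 9 had a window in the table and Entpd4 had none.

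Cnpy4 read 8.05, 8.03 and 7.93 in knockout mice and 7.64, 7.73 and 7.67 in wild-type mice on chow. On high-fat diet Cnpy4 read 8.08, 7.92, 8.03 and 8.04 in knockout mice and 7.57, 7.71 and 7.75 in wild-type mice. Every knockout array was above every wild-type array on each diet. The Cnpy4 difference was 0.33 ± 0.07 on chow and 0.34 ± 0.07 on high-fat diet, 1.26-fold on average.

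Mblac1, the next gene, went the other way. It read 6.54, 6.45 and 6.41 in knockout and 6.87, 6.76 and 7.10 in wild-type mice on chow. On high-fat diet Mblac1 read 6.41, 6.14, 6.37 and 6.11 in knockout and 6.80, 6.84 and 6.99 in wild-type mice. All knockout arrays lay below all wild-type arrays, by -0.44 ± 0.11 on chow and -0.62 ± 0.10 on high-fat diet.

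Nxpe5 read 6.32, 6.40 and 6.35 in knockout and 7.49, 7.15 and 7.21 in wild-type mice on chow. On high-fat diet Nxpe5 read 7.69, 7.79, 7.92 and 7.53 in knockout and 8.75, 8.03 and 8.45 in wild-type mice. The knockout arrays were lower on each diet, by -0.92 ± 0.15 on chow and -0.68 ± 0.14 on high-fat diet, and the knockout mice on high-fat diet stood above the wild-type mice on chow. Nxpe5 rose with the diet by 1.25 ± 0.11 over both genotypes (2.38-fold, limma adjusted p 4.05e-07), by 1.38 ± 0.14 in knockout mice and 1.13 ± 0.15 in wild-type mice.

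A430033K04Rik is a protein-coding gene named only by its clone. It read 6.69, 6.82 and 6.88 in knockout and 7.33, 7.51 and 7.83 in wild-type mice on chow. On high-fat diet A430033K04Rik read 6.62, 6.46, 6.57 and 6.60 in knockout and 7.32, 7.31 and 7.26 in wild-type mice. The genotypes were apart on each diet, by -0.76 ± 0.11 on chow and -0.73 ± 0.10 on high-fat diet. It fell with the diet by 0.25 ± 0.07 (limma adjusted p 0.0149), the change being -0.23 ± 0.10 in knockout and -0.26 ± 0.11 in wild-type mice.

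Among genes of mitochondria, Fis1 and Nipsnap2 were lower in knockout mice. Fis1, an outer-membrane adaptor of mitochondrial fission 146 places beyond P2rx7, read 10.60, 10.59 and 10.70 in knockout and 10.85, 10.87 and 10.91 in wild-type mice on chow. On high-fat diet Fis1 read 10.71, 10.60, 10.59 and 10.39 in knockout and 10.96, 10.99 and 10.89 in wild-type mice. The difference was small, 1.24-fold on average, yet no knockout array reached a wild-type array on either diet.

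Nipsnap2, 70 places beyond P2rx7 and so the nearest of the 10 to it, encodes a mitochondrial protein that in human cells marks damaged mitochondria for autophagy. It read 9.16, 9.26 and 9.22 in knockout and 9.96, 10.01 and 9.84 in wild-type mice on chow. On high-fat diet Nipsnap2 read 9.11, 9.01, 9.14 and 9.06 in knockout and 9.45, 9.54 and 9.52 in wild-type mice. The genotype difference was -0.72 ± 0.06 on chow and -0.42 ± 0.06 on high-fat diet, with no overlap on either. Nipsnap2 fell with the diet by 0.28 ± 0.04 (limma adjusted p 7.9e-05), the change being -0.13 ± 0.06 in knockout mice and -0.43 ± 0.06 in wild-type mice.

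Stbd1, on the other side of P2rx7 at a distance of 273 places, encodes a protein that binds glycogen and tethers it to membranes. It read 5.28, 5.03 and 4.89 in knockout and 4.16, 4.23 and 3.72 in wild-type mice on chow. On high-fat diet Stbd1 read 4.62, 4.70, 4.70 and 4.77 in knockout and 4.62, 4.31 and 4.38 in wild-type mice. The genotypes were apart on chow, by 1.03 ± 0.14, and touched on high-fat diet, where the difference was 0.26 ± 0.13. The diet difference of Stbd1 had opposite signs: it was -0.37 ± 0.13 in knockout mice, with every high-fat array below every chow array, and 0.40 ± 0.14 in wild-type mice, with every high-fat array above. Averaged over the genotypes the diet effect was 0.02 ± 0.09 and did not pass (limma adjusted p 0.89). The Stbd1 signal was dim: its mean over all arrays, 4.57, lay at percentile 28.9 of the genes, and there is no detection call.

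The remaining 3 genes lie on other chromosomes. Lrmda, on chromosome 14, encodes a leucine-rich protein of melanocyte differentiation whose loss causes albinism in humans. Its probe set showed the largest genotype difference of the 18820 genes. Lrmda read 6.87, 6.60 and 6.61 in knockout and 9.44, 9.43 and 8.48 in wild-type mice on chow. On high-fat diet Lrmda read 6.43, 6.14, 6.13 and 6.05 in knockout and 8.08, 8.51 and 9.05 in wild-type mice. The gap between the genotypes exceeded the spread within each group on both diets, with -2.42 ± 0.25 on chow (5.35-fold) and -2.36 ± 0.24 on high-fat diet (5.13-fold). With the diet Lrmda fell by 0.54 ± 0.17 (limma adjusted p 0.0213). That call was lost on leaving out the chow wild-type replicate 1 (-0.46) or replicate 2 (-0.46), the high-fat wild-type replicate 1 (-0.42) or the chow knockout replicate 1 (-0.49).

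Entpd4, also on chromosome 14, encodes a nucleotidase of the Golgi apparatus and lysosomes. It read 9.72, 9.76 and 9.69 in knockout and 10.24, 10.48 and 10.23 in wild-type mice on chow. On high-fat diet Entpd4 read 9.74, 9.72, 9.68 and 9.53 in knockout and 10.33, 10.17 and 10.42 in wild-type mice. The difference was -0.59 ± 0.08 on chow and -0.64 ± 0.08 on high-fat diet, and the genotypes did not overlap. The reference lists a paralogue, Entpd4b, on the same chromosome, and no source used here says whether the Entpd4 probe set reads it too.

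Mid1, a ubiquitin ligase bound to microtubules that controls the phosphatase PP2A, is on chromosome X, where in C57BL/6 mice it spans the boundary of the region shared with Y. It read 8.18, 7.97 and 7.92 in knockout and 8.60, 8.49 and 8.58 in wild-type mice on chow. On high-fat diet Mid1 read 8.39, 8.60, 8.49 and 8.30 in knockout and 9.28, 9.16 and 9.58 in wild-type mice. Knockout arrays were lower on each diet, by -0.53 ± 0.11 on chow and -0.90 ± 0.10 on high-fat diet. Mid1 rose with the diet by 0.61 ± 0.07 (limma adjusted p 1.5e-05), by 0.42 ± 0.10 in knockout mice and 0.79 ± 0.11 in wild-type mice.

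**Figure D2:**
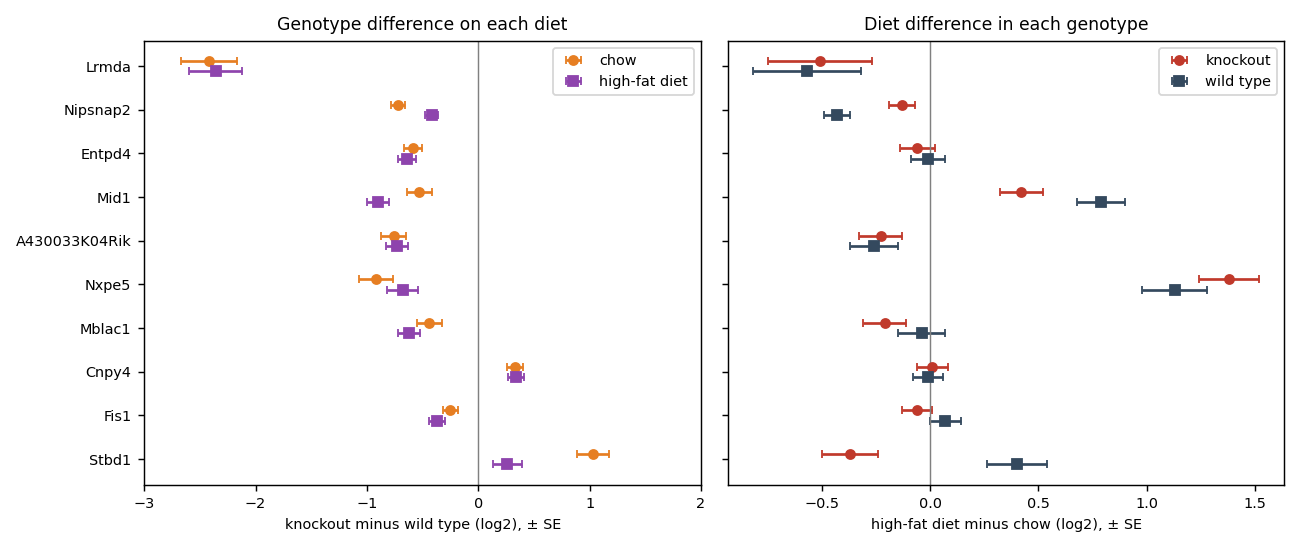
The left panel plots the log2 difference of knockout minus wild type on chow and on high-fat diet for the 10 genes, and the right panel the log2 difference of high-fat diet minus chow in knockout and in wild-type mice, each with its limma SE as a bar. Lrmda stands furthest to the left at -2.42 and -2.36, and Stbd1 lies on opposite sides of 0 in the right panel, at -0.37 in knockout and 0.40 in wild-type mice.

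Set together, the diet test averaged over genotypes passed for 5 of the 10 genes, with Nxpe5 and Mid1 risen and Nipsnap2, A430033K04Rik and Lrmda fallen. Of all genes 46.5% passed, 20.3% risen and 26.3% fallen, so the share among the 10 genes is near that of all genes. Their median diet effect was -0.02, against -0.04 over all genes. Fis1, Cnpy4, Mblac1, Entpd4 and Stbd1 did not pass, with Mblac1 at -0.12 ± 0.08 (adjusted p 0.208) and the other four within 0.03 of 0. The genotype difference was larger in size on chow for 5 genes and on high-fat diet for 5.

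The neighbours of P2rx7 were described by gene order, leaving out the 10 genes. Within 100 measured genes on each side, 0 of 199 passed for genotype averaged over diets with limma. This 0 follows from the choice of the genes: all 7 chromosome 5 genes that passed are among the 10, and Nipsnap2 lies in this window. Of the 199, 25 (12.6%) had an unadjusted p under 0.05, against 7.18% of all genes other than the 10 and P2rx7. Closer in the share was higher: 9 of 50 genes (18%) within 25 places and 17 of 100 (17%) within 50. It was 45 of 395 genes (11.4%) within 200 places and 55 of 676 (8.14%) on the rest of the chromosome. These windows are nested and genes in them are not independent, and no test was run on the shares.

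The same order held for genes whose arrays did not overlap between the genotypes on both diets, in the same direction. They were 4 of 50 (8%) within 25 places of P2rx7, 6 of 199 (3.02%) within 100 and 7 of 395 (1.77%) within 200, against 7 of 676 (1.04%) on the rest of chromosome 5 and 0.431% of all genes. The 7, chosen after their values were seen, are Erp29, Aldh2, Kdm2b, Setd1b, Ddx55, Cct6a and Mospd3, and the 7 were lower in knockout mice. Their differences were small, between -0.10 ± 0.05 for Kdm2b (a histone demethylase, 5 places beyond P2rx7) and -0.26 ± 0.05 for Mospd3. By limma 0 of the 7 passed (smallest adjusted p 0.0567, for Mospd3), which again follows from leaving out the 10 genes. Mospd3 passed in 6 of 20 alternative fits: both other scalings, without dim genes, with array weights, without the high-fat wild-type replicate 2 and without the high-fat knockout replicate 4. Cct6a passed with array weights. Around the genes on other chromosomes, 100 places on each side, the unadjusted share was 6.94% for Lrmda (12 of 173), 6.5% for Entpd4 (13 of 200) and 7.77% for Mid1 (8 of 103). On chromosome 5 it was 10.5% around Stbd1 (21 of 200) and 11.7% around Nxpe5 (23 of 196). Around Nxpe5, 193 places from P2rx7, 5 genes (2.55%) were apart on both diets, so the shares there were near those within 100 places of P2rx7.

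**Figure D3:**
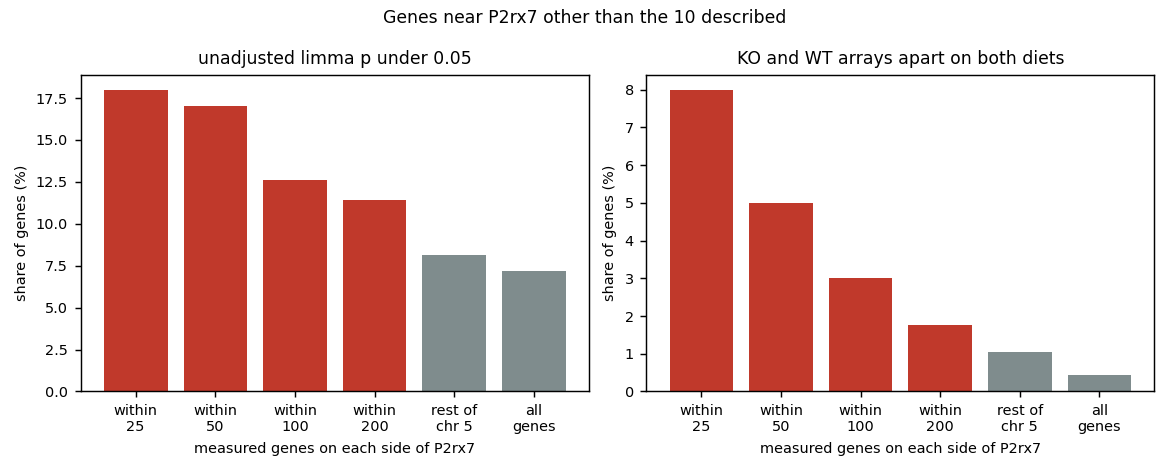
Bars give the share of genes, in percent, among measured genes other than the 10 and P2rx7, within 25, 50, 100 and 200 places on each side of P2rx7 (red), on the rest of chromosome 5 and over all genes (grey). On the left are genes with an unadjusted limma p under 0.05, from 18% within 25 places to 7.18% of all genes, and on the right genes with non-overlapping genotypes on both diets, from 8% to 0.431%.

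**Figure D4:**
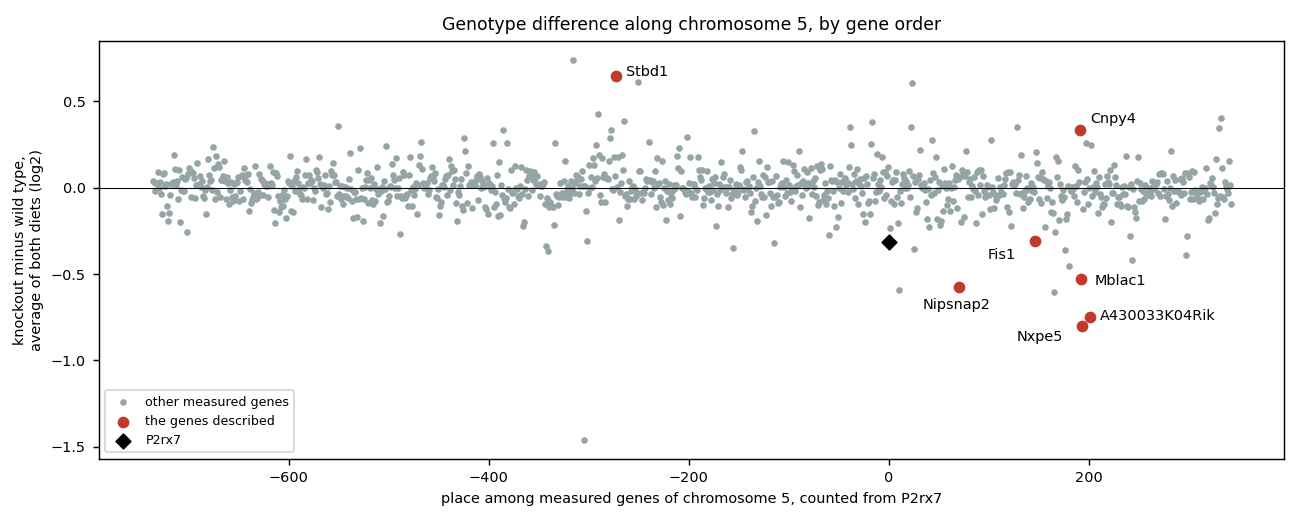
Each point is a measured gene of chromosome 5, placed by its order from P2rx7 (horizontal axis, in genes) and by its log2 difference of knockout minus wild type averaged over the diets (vertical axis). The genes described are red and P2rx7 is the black diamond at -0.31, and 6 of the 7 red points lie to its right, Stbd1 lying 273 places to its left. The lowest grey point is Alb, the serum albumin gene of liver, at -1.46 ± 0.43 (adjusted p 0.424).

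Of the 16 measured genes directly beside the 10 and not among them, 0 passed for genotype with limma. For those on chromosome 5 this follows from the choice of the genes. Of the 16, 4 (25%, against 7.18% of all genes other than the 10 and P2rx7) had an unadjusted p under 0.05. The differences of the 16 ran from -0.29 to 0.25. Taf6, a subunit of the general transcription factor TFIID and the gene before Cnpy4, stood at 0.03 ± 0.05, and Lamtor4, a lysosomal scaffold of nutrient signalling and the gene after Nxpe5, at -0.12 ± 0.05. Mrps17 and Psph, on either side of Nipsnap2, stood at 0.05 ± 0.07 and 0.06 ± 0.10. Further from 0 were Loxl2 beside Entpd4 (-0.29 ± 0.11), Cldn15 beside Fis1 (0.20 ± 0.07) and Fam20c beside A430033K04Rik (0.25 ± 0.08). The genes beside Lrmda were Zfp503 at -0.08 ± 0.07 and Gm10248 at -0.05 ± 0.05. Within 10 places of any of the 10 genes, 1 of 140 others passed: Erdr1, the last measured gene of chromosome X and 3 places beyond Mid1.

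Erdr1, named here after its value was seen and annotated by RefSeq as a transcribed pseudogene, was higher in knockout mice, opposite to Mid1. It read 11.06, 10.52 and 10.75 in knockout and 9.99, 10.12 and 9.90 in wild-type mice on chow. On high-fat diet Erdr1 read 10.79, 11.29, 10.92 and 11.12 in knockout and 10.65, 10.33 and 10.48 in wild-type mice. The difference was 0.66 ± 0.10 (limma adjusted p 0.0177), with no overlap on either diet, and no source used here says which copies the probe set reads.

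The genes most like each of the 10 in pattern were sought among the genes outside the 10, taking 2 for each. The measure was the Pearson correlation over the 13 arrays, after the mean of each diet was subtracted. The 20 places so filled had r between 0.868 and 0.951, and 7 of them went to chromosome 5 genes, while chromosome 5 holds 5.73% of the genes. Since the 10 genes were chosen for a genotype difference, genes that share it are found again, and nothing is read from this share. Mospd3, a membrane protein gene 166 places beyond P2rx7, filled 4 of the 7 places. Of the genes outside the 10 it was the most like Nxpe5 (0.933), Entpd4 (0.93), Fis1 (0.924) and Mblac1 (0.916). Some of the 10 were closer to each other, with Lrmda and Entpd4 at 0.961 and Mid1 and Mblac1 at 0.923. Mospd3 read 8.53, 8.53 and 8.50 in knockout and 8.82, 8.74 and 8.77 in wild-type mice on chow. On high-fat diet Mospd3 read 8.38, 8.36, 8.40 and 8.17 in knockout and 8.60, 8.54 and 8.60 in wild-type mice. The genotypes were thus apart on each diet by a small step.

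Cnpy4 was most like Acad10 (0.939), an acyl-CoA dehydrogenase gene on the other side of P2rx7, 17 places from it. Acad10 averaged 6.77 ± 0.17 in knockout and 6.41 ± 0.21 in wild-type mice on chow (SD, n = 3 each), and 6.24 ± 0.11 in knockout (SD, n = 4) and 5.84 ± 0.16 in wild-type mice (SD, n = 3) on high-fat diet. Mid1 was most like Erp29 (0.951), an endoplasmic reticulum protein gene 24 places before P2rx7, although Mid1 is on chromosome X. Stbd1 was most like Rab4a (0.94), a small GTPase gene on chromosome 8. The 13 arrays share the same genotype contrast, so these correlations describe that contrast and carry no p-value.

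Relatives and partners of the 10 genes were followed in 9 lists. Of 63 measured genes in them, 0 passed for genotype with limma (smallest adjusted p 0.66) and 3 had an unadjusted p under 0.05. With the diet, 12 rose and 19 fell, 49.2% of the 63 against 46.5% of all genes, so the share is near that of all genes. In the longest list, that of glycogen handling beside Stbd1, 1 rose and 11 fell of 17 (70.6%, against 20.3% risen and 26.3% fallen of all genes), with a median of -0.36 against -0.04 over all genes. Pygb, a glycogen phosphorylase, fell by 1.55 ± 0.06 (limma adjusted p 1.23e-09). Glycogen synthase Gys1 fell by 1.25 ± 0.09 (adjusted p 1.07e-07) and the liver-type phosphorylase Pygl fell by 1.32 ± 0.10 (adjusted p 1.59e-07).

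The other lists are short, and 46.5% of all genes passed for diet. Among the mitochondrial partners of Fis1, 2 of 8 fell with the diet and 0 rose, the fusion proteins Mfn2 (-0.68 ± 0.07) and Opa1 (-0.18 ± 0.05). In the NIPSNAP family Nipsnap1 fell by 0.62 ± 0.11 and Nipsnap3b rose by 0.38 ± 0.05. Of 7 relatives of Entpd4, 2 rose and 1 fell, with Entpd7 up by 1.09 ± 0.08, Entpd1 up by 0.80 ± 0.07 and Entpd6 at -0.51 ± 0.11. Of 9 genes of melanosome formation, beside Lrmda, 4 rose and 1 fell, with the transcription factor Mitf up by 1.08 ± 0.08, Rab38 up by 0.33 ± 0.10 and Dct at -0.53 ± 0.12. Among 6 relatives and partners of Mid1, Mid1ip1 rose (0.25 ± 0.07) and Mid2 fell (-0.28 ± 0.10). Of 5 canopy and Toll-like receptor chaperone genes 1 rose, Unc93b1, which carries Toll-like receptors to endosomes, by 1.00 ± 0.07. Of 5 genes near Mblac1 in function 2 rose and 2 fell, with Cpsf2 up by 0.36 ± 0.06 and Mblac2 at -0.32 ± 0.06. The 3 Nxpe relatives did not pass, with Nxpe3 at -0.19 ± 0.11, whereas Nxpe5 rose.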

How the data were processed

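RNA of 13 samples was hybridised to Affymetrix arrays, and per the labels 100 ng of total RNA went into each. The authors deposited a log2 value for each probe set on each array, made with RMA per the submitters' processing notes, the version being not given in the sources. No further normalisation was applied. Of 35556 probe sets, 21218 had 1 gene symbol in the platform annotation, 1881 several and 12457 none. The probe set with the highest mean stood for a gene (18820 genes), and each of the 10 genes had 1. Chromosome and gene order came from RefSeq (GRCm38.p6, 18790 genes matched), since no source used here names the array's build.

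Genes were fitted with limma 3.58.1 (R 4.3.3), as 4 group means over all 13 arrays with an intensity trend, and p-values were adjusted by Benjamini-Hochberg over all genes. A plus-minus sign gives the limma SE unless SD is stated. The steps were tested on simulated data. Genes and lists were chosen with earlier results of these data known. Named genes were the 10 genes with P2rx7, and up to 3 passing genes of a list or 1 as a value. Up to 12 passing neighbours within 200 places of P2rx7 were to be named too. For each of the 10, the 2 most-alike genes from outside the 10 were added. Genes directly beside the 10, the genes apart on both diets, Erdr1 and Alb were added after the data were seen. Alternatives were other scaling, no intensity trend, array weights, a replicate block, other windows, leaving out dim genes, averaging a gene's probe sets, and leaving out each array.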

Additional observations from a re-analysis of the deposited data

Results flagged for a closer look

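Stbd1 stood out because the diet difference had opposite signs in the genotypes, with every high-fat array below every chow array in knockout mice and every high-fat array above every chow array in wild-type mice. The diet effect in knockout mice minus that in wild-type mice was -0.77 ± 0.19 on the log2 scale. Stbd1 read dim, with a mean over all arrays of 4.57, below the array medians of 6.56 to 6.69. Over all genes, 0 of 18820 (0%) passed for this interaction with limma, Stbd1 included, and 1829 (9.72%) had an unadjusted p under 0.05.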

How the results depend on the processing

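The genotype differences of the 10 genes kept their sign and moved by less than the within-group SD in all 68 values under other settings and all 130 with an array left out. Mblac1 and Stbd1 have no value in the fit without dim genes, since their means, 6.60 and 4.57, lay below its cut of 6.66. The 10 genes were chosen for these differences on the same arrays. Their kept signs, and the counts of the 10 that passed for genotype, are therefore a description and no support. The count of genes passing for genotype, 20, was 32 with array weights and 6 with the replicate block, and 11 to 62 with an array left out, being 11 without the chow wild-type replicate 1 and 62 without the high-fat wild-type replicate 2. Of the 10 genes described, 10 passed with array weights, 5 with the block, and 7 to 10 with an array left out, 7 being without the chow knockout replicate 2. Within 100 genes of P2rx7, 1 other gene, Cct6a, passed with array weights, against 0 otherwise, 0 to 0 with an array left out, and 0 within 50 or 200 genes on each side by the settings of the report. By those settings the 0 follows from leaving out the 10 genes. Within 200 genes the alternative fits gave 0 to 3, Mospd3 passing in 6 of 20, 2 of them with an array left out. The cause of these moves was not tested. The diet test passed for 4 to 5 of the 10 genes with an array left out and for 4 with the replicate block, where Lrmda stood at -0.52 (limma adjusted p 0.0656). Of all genes 8106 to 8902 passed for diet with an array left out. The count was 8411 with the replicate block, 9219 with arrays centred on their medians and 9276 with array weights. It was 6313 without dim genes, where fewer genes were tested. Values near 0 changed sign: with arrays centred on their medians Cnpy4 and Fis1 stood at -0.03 and Stbd1 at -0.01, with a second quantile normalization Cnpy4 at -0.03, with array weights Cnpy4 at -0.0022 and with the replicate block at -0.0008. With an array left out, the diet effect ran from -0.02 to 0.03 for Cnpy4, -0.02 to 0.04 for Fis1, -0.06 to 0.0074 for Entpd4 and -0.06 to 0.07 for Stbd1. Deviations from the group means correlated at -0.30 to 0.22 over 18 pairs of samples of the same number. Over 45 pairs of different numbers r ran from -0.41 to 0.53. No pairing by number was seen, and these values cannot show whether samples were handled together. Signal over background was not given, so dim values such as those of Stbd1 have no detection call.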

Other observations

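Fam20c, a kinase gene of the secretory pathway that lies directly beyond A430033K04Rik, had a genotype difference that was not alike on the 2 diets. It averaged 9.62 ± 0.10 in knockout and 8.91 ± 0.23 in wild-type mice on chow (SD, n = 3 each), and 9.53 ± 0.19 in knockout (SD, n = 4) and 9.75 ± 0.08 in wild-type mice (SD, n = 3) on high-fat diet. The Fam20c difference was 0.72 ± 0.12 (SE) on chow and -0.23 ± 0.11 on high-fat diet. Averaged over the diets it did not pass (0.25 ± 0.08, limma adjusted p 0.55), and Fam20c is among the genes that did not pass for the interaction, for which 0 of 18820 did.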
